A study of Sus scrofa with 6 samples.

Results

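Apolipoproteins and the other main proteins that yolk sac endoderm and liver release into the blood were followed in whole pig embryos with and without VRTN alleles tied to vertebral number. The genes were chosen by the protein description that the deposited table gives for each transcript: apolipoproteins A, B, C and E, alpha-fetoprotein, transthyretin and serotransferrin, without receptors and the APOB mRNA-editing enzymes. The descriptions were found in 18 of 20523 transcript rows, which belong to 13 genes, and each gene was represented by its row with the most reads. APOB was selected on its own values in the comparison of the genotypes described here, so its difference between them is given as a description without a test. QQ embryos were homozygous for 2 quantitative trait nucleotides (QTNs) of VRTN and WT embryos carried neither. All were Large White embryos of 17.5 to 18.0 days post coitum, taken from the uterus and sequenced whole, with 3 embryos per genotype. The extra-embryonic tissue of each embryo was used for genotyping, and how much yolk sac stayed with the embryo is not stated in the labels. Litter and dam are not given either, and a p-value here weighs a difference against the spread of these 6 embryos alone.

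Before the liver takes over, the visceral endoderm of the yolk sac makes most of the plasma proteins of a mammalian embryo. It packs lipid into particles built on APOB, which the microsomal transfer protein MTTP loads, and the small apolipoproteins A and C coat those particles and set how lipases and receptors treat them. Alpha-fetoprotein (AFP), transthyretin (TTR) and transferrin (TF) are secreted by the same cells and carry fatty acids, thyroid hormone with retinol-binding protein, and iron. The factor HNF4A drives many of these genes. In a whole embryo, fewer cells of such a type and less RNA per cell cannot be told apart.

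Libraries held 12.2 to 13.5 uniquely mapped reads in units of 1000000. The library of WT replicate 3 was unlike the rest: on a first principal component with 57.7% of the variance it lay at 61.7, and the others between -30 and 9.12. Of all rows, 13957 had enough reads for the test, and among them were 10 of the 13 genes. APOA4, APOC4 and APOA5 were below the filter, and APOB passed it through QQ libraries only: all 3 QQ libraries and 0 WT libraries lay above the level that 10 reads mark in a library of median size.

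APOB, the structural protein of lipoprotein particles, is represented by transcript ENSSSCT00000009406 of 3336 bp. It had 23, 15 and 285 reads in QQ replicates 1 to 3, against 8, 6 and 4 reads in WT replicates 1 to 3. In RPKM (reads scaled to transcript length and library total) these are 0.511, 0.357 and 7.0 in QQ embryos, against 0.192, 0.140 and 0.0892 in WT embryos. QQ replicate 3 held most of the reads and the groups did not overlap, as in 18.8% of all tested rows with higher and 9.07% with lower QQ values. The mean was 2.62 ± 3.79 RPKM in QQ embryos and 0.140 ± 0.0514 RPKM in WT embryos (SD, n = 3 each). The fitted log2 fold change was 4.09, and 1.55 without QQ replicate 3.

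The APOB row with the second most reads differed from it. Transcript ENSSSCT00000026570, of 4888 bp, came within a few reads of being the representative row, with 338 reads in all against 341. It had 58, 5 and 123 reads in QQ replicates 1 to 3, against 31, 8 and 113 reads in WT replicates 1 to 3. Here the groups overlapped, WT replicate 3 was nearly as high as QQ replicate 3, and both replicates 2 were low. Its log2 fold change was 0.23. In WT replicate 3 the chosen row held 3.42% of the reads of all 4 APOB rows, against 64.5% in QQ replicate 3. With the 4 rows summed, APOB had 81, 25 and 442 reads in QQ embryos, against 41, 14 and 117 reads in WT embryos, and the groups overlapped. The log2 fold change of the sum was 1.62.

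**Figure D1:**
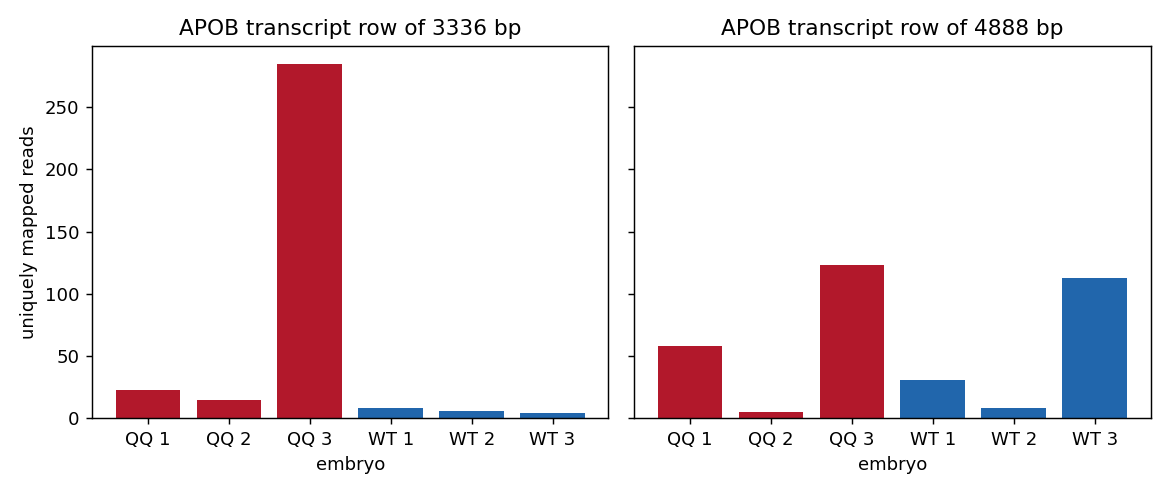
Uniquely mapped reads (vertical axis, linear from 0) in each of the 3 QQ embryos (red) and 3 WT embryos (blue), for the APOB transcript rows with the most reads. In the row of 3336 bp QQ 3 stands at 285 reads and WT 3 at 4, while in the row of 4888 bp they stand at 123 and 113.

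Neither row was read over much of its length. The authors' percent of the transcript covered was 16.3, 13.2 and 27.6% in QQ embryos and 10.4, 8.51 and 5.88% in WT embryos for the row of 3336 bp. For the row of 4888 bp it was 5.99, 3.78 and 6.20% in QQ embryos, against 5.56, 5.28 and 6.18% in WT embryos. Its 123 reads in QQ replicate 3 lay on 303 bp and its 113 reads in WT replicate 3 on 302 bp. The remaining APOB rows, of 2475 and 1279 bp, had 0, 4 and 14 and 0, 1 and 20 reads in QQ embryos, against 1, 0 and 0 reads in WT embryos for each row. Like the chosen row, both had their highest value in QQ replicate 3 and no high value in WT replicate 3. How reads were shared out between the rows by the mapping was not tested.

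The 8 tested genes whose profile over the 6 libraries lay closest to the chosen APOB row were MRC1, SLC13A5, CSF2RB, KNG1, SLC2A2, SERPIND1, ADGRF4 and A2M. Their root mean square difference from it ran from 0.73 (MRC1) to 1.05 (A2M) on the log2(CPM + 0.5) scale, each row centred on its own mean (CPM is counts per 1000000 reads), where the median over all tested rows was 1.62. MRC1 encodes the mannose receptor of macrophages, CSF2RB a shared subunit of cytokine receptors and ADGRF4 an adhesion G protein-coupled receptor. KNG1 encodes kininogen, SERPIND1 heparin cofactor II and A2M alpha-2-macroglobulin, which are plasma proteins, SLC2A2 a glucose transporter of liver and SLC13A5 a citrate transporter. The second APOB row differed from the first by 1.57 on the same measure, and 4944 tested rows lay closer. The 8 genes closest to the second row were others: FETUB (0.23), SLC22A7 (0.34), APOA2, APOC2, TTR, PLG, HAL and FGA (0.46), with a median of 1.40 over all tested rows.

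AFP, the main plasma protein of the embryo, had 1474, 331 and 7768 reads in QQ replicates 1 to 3, against 1150, 182 and 3540 reads in WT replicates 1 to 3. Replicate 3 was the highest and replicate 2 the lowest in both genotypes, and the groups overlapped. In RPKM the mean was 129 ± 166 in QQ embryos and 61.9 ± 64.1 in WT embryos (SD, n = 3 each). The log2 fold change was 0.93 ± 1.08 (SE), with an edgeR quasi-likelihood adjusted p of 0.621. Between replicates 3 and 2 of the same genotype AFP differed 24.2-fold in QQ and 18.6-fold in WT embryos. A second, shorter AFP row had 38, 12 and 231 reads in QQ embryos, against 29, 2 and 55 reads in WT embryos, in the same order.

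TTR, the carrier of thyroid hormone and of the retinol-binding protein, had 217, 32 and 852 reads in QQ embryos, against 141, 33 and 502 reads in WT embryos. TF, the iron carrier, had 1941, 400 and 3764 reads in QQ embryos, against 2089, 793 and 2767 reads in WT embryos. In both genes replicate 3 was again the highest and replicate 2 the lowest of each genotype, with overlapping groups. The log2 fold change was 0.65 ± 1.02 (SE) for TTR and 0.05 ± 0.66 (SE) for TF, with edgeR adjusted p of 0.717 and 0.967.

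The apolipoproteins of high-density particles were APOA1 and APOA2. APOA1, which activates the cholesterol-esterifying enzyme LCAT, had 397, 209 and 904 reads in QQ embryos, against 459, 269 and 680 reads in WT embryos. APOA2 had 181, 34 and 278 reads in QQ embryos, against 70, 23 and 179 reads in WT embryos. Both followed the order of AFP within each genotype, and the groups overlapped. The log2 fold change was 0.04 ± 0.49 (SE) for APOA1 and 0.79 ± 0.75 (SE) for APOA2, with edgeR adjusted p of 0.966 and 0.535. APOA1 reads covered 24.1 to 25.1% of the transcript over the 6 libraries. A second APOA1 row had 1, 1 and 0 reads in QQ embryos and 0 reads in each WT embryo, and with the rows summed the log2 fold change of APOA1 was 0.04.

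APOC2, the activator of lipoprotein lipase, had 178, 25 and 354 reads in QQ embryos, against 122, 15 and 364 reads in WT embryos. APOC3, its inhibitor, had 67, 2 and 188 reads in QQ embryos, against 17, 43 and 176 reads in WT embryos. APOC2 followed the order of AFP. APOC3 did so in QQ embryos but had its lowest WT value in replicate 1. Groups overlapped in both, with log2 fold changes of 0.09 ± 0.95 (SE) for APOC2 and 0.07 ± 1.01 (SE) for APOC3, and edgeR adjusted p of 0.958 and 0.970.

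APOE, a ligand of lipoprotein receptors that many tissues make, was the most abundant of the 13 genes and varied little. It stood at 705, 656 and 895 RPKM in QQ embryos, against 604, 605 and 696 RPKM in WT embryos. QQ replicate 3 was the highest, and the groups overlapped only between QQ replicate 2 and WT replicate 3. The mean was 752 ± 126 RPKM in QQ embryos and 635 ± 52.8 RPKM in WT embryos (SD, n = 3 each), with a log2 fold change of 0.15 ± 0.14 (SE) and an edgeR adjusted p of 0.557. Reads covered 99.7 to 99.9% of the transcript in QQ embryos.

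The remaining rows had few reads or an unclear identity. A row described as alpha-fetoprotein-like had 10, 12 and 14 reads in QQ embryos, against 16, 12 and 14 reads in WT embryos. Which gene it belongs to is not settled by the table, and its log2 fold change was -0.30 ± 0.32 (SE; edgeR adjusted p = 0.592). APOA4, an intestinal apolipoprotein in adults, had 3 reads over the QQ libraries and 13 over the WT libraries, of which WT replicate 3 held 9. That is 0.0784 CPM in QQ (exact 95% Poisson interval 0.0162 to 0.229) and 0.335 CPM in WT embryos (0.178 to 0.573). APOC4 had 2 reads and APOA5 1 read over the QQ libraries, and both had 0 in WT libraries, which by the floor of 3 reads over the group allows up to 0.0774 CPM (exact 95% Poisson upper limit 0.0951). A difference in either was not detectable at this depth.

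**Figure D2:**
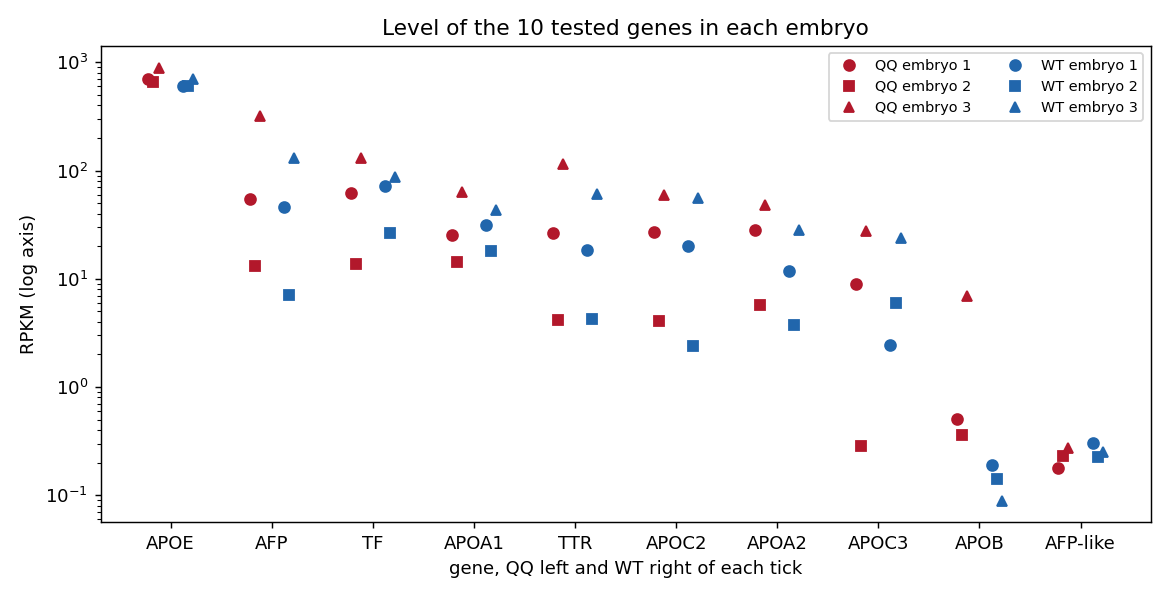
RPKM (vertical log axis) of the 10 tested genes in each QQ embryo (red, left of each tick) and WT embryo (blue, right), with a marker shape for each replicate number. APOE stays between 604 and 895 RPKM, whereas AFP runs from 7.13 RPKM in WT 2 to 320 RPKM in QQ 3, and replicates 3 (triangles) lie above replicates 2 (squares) in most genes of both genotypes.

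Set against all tested rows, the genotypes did not separate these genes by the test. The edgeR quasi-likelihood test called 0 of the 9 tested genes other than APOB, beside 0% of all 13957 rows, with adjusted p from 0.535 to 0.970. Without adjustment, p was under 0.05 in 2838 rows of the whole table and in 0 of these 9 genes, and DESeq2, which gave the AFP-like row no adjusted p, called 0 of the other 8, with 103 rows called higher and 8 lower in the whole table. Leaving APOB out, the fitted value was higher in QQ for 8 of these 9 genes. In APOA1, TF, APOC3 and APOC2 it was higher by only 0.04 to 0.09 in log2, less than the SE of each. The log2 fold changes of the 9 had a median of 0.09 (0.12 with APOB), and those of all tested rows one of -0.00284. The median of the 9 was -0.79 without QQ replicate 3, -0.23 without WT replicate 2 and 1.36 without WT replicate 3. AFP moved to -0.94 without QQ replicate 3 and to 2.19 without WT replicate 3, and TTR to -0.95 and 2.01.

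**Figure D3:**
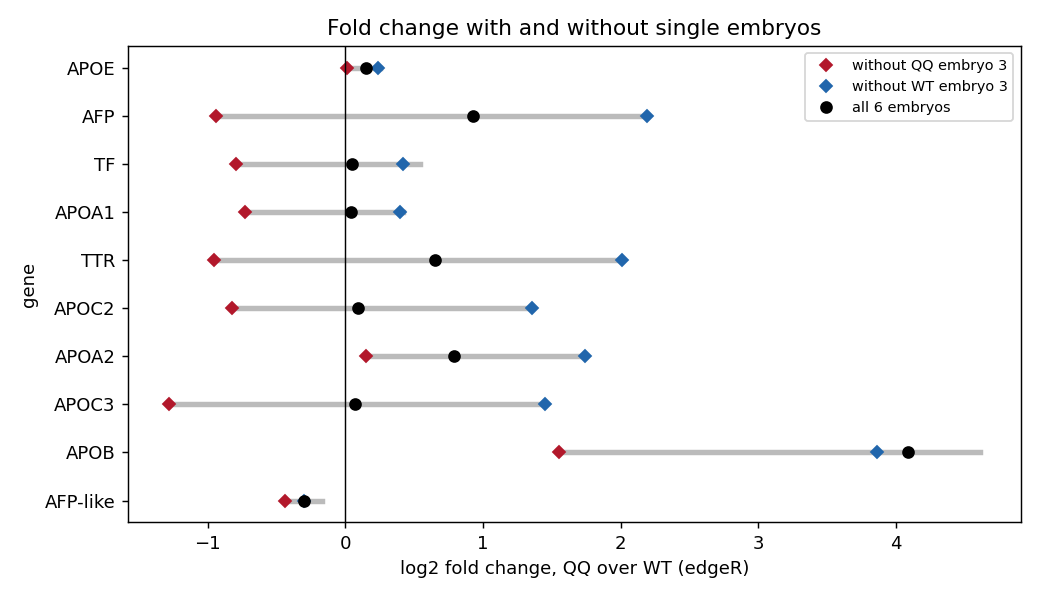
Log2 fold change of QQ over WT embryos (horizontal axis, edgeR) for each tested gene with all 6 embryos (black), without QQ 3 (red diamonds) and without WT 3 (blue diamonds), with a grey line over the values that leaving out each embryo in turn gave. The line crosses 0 for AFP, TF, APOA1, TTR, APOC2 and APOC3.

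These genes varied widely between embryos of 1 genotype. On the log2(CPM + 0.5) scale, 5 of the 9 tested genes other than APOB differed at least 4-fold among the QQ libraries and also among the WT libraries, namely AFP, TTR, APOC2, APOA2 and APOC3, beside 0.165% of all tested rows. TF and APOA1 did so among QQ libraries only. Over all 6 libraries 7 of the 9 differed at least 4-fold, beside 3.73% of all tested rows. The range over the 6 libraries was 5.44 on that scale for AFP, as wide in 0.0358% of tested rows, 4.53 for TTR, 4.14 for APOC2, 3.34 for APOA2, 3.26 for TF and 2.12 for APOA1. APOE (0.57) and the AFP-like row (0.52) stayed below the median of all tested rows, 0.64. Replicate 3 was the highest and replicate 2 the lowest in both genotypes for 6 of the 9, AFP, TF, APOA1, TTR, APOC2 and APOA2, beside 3.25% of all tested rows. Both the 4-fold limit and this order were chosen after the values were seen, and the numbers are names of embryos that the labels do not link across genotypes.

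Summed over the 13 genes, the level was 939, 712 and 1668 RPKM in QQ replicates 1 to 3, against 807, 673 and 1129 RPKM in WT replicates 1 to 3. Without APOE it was 234, 56.0 and 773 RPKM in QQ embryos, against 203, 68.4 and 433 RPKM in WT embryos. APOE held 53.7% of the sum in QQ replicate 3 and 92.1% in QQ replicate 2, against 61.6% in WT replicate 3 and 89.8% in WT replicate 2. Within the rest, AFP led in QQ replicate 3 (41.4%) and WT replicate 3 (30.5%). TF led in QQ replicate 1 (26.3%) and in WT replicates 1 and 2 (35.2 and 38.5%), and APOA1 in QQ replicate 2. RPKM divides by the whole transcript length, and the rows were unequally covered. In QQ replicate 1 reads covered 24.8% of the APOA1 row, 66.3% of the AFP row and 98.3% of the TF row. Shares and leading genes were not worked out on covered length, so they hold for RPKM alone.

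**Figure D4:**
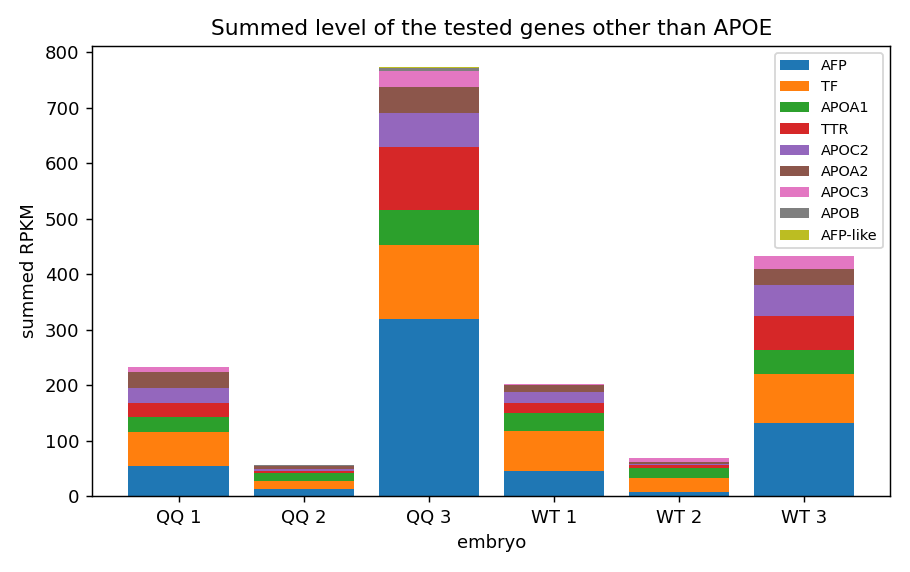
RPKM of the tested genes other than APOE, stacked by gene (vertical axis, linear from 0) in each QQ and WT embryo. The stacks of QQ 3 (773) and WT 3 (433) are the tallest of their genotypes and those of QQ 2 (56.0) and WT 2 (68.4) the lowest.

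Other secreted proteins of liver and yolk sac endoderm showed the same order. Of 30 listed genes 28 had a row and 19 were tested. The edgeR test called 0, beside 0% of all tested rows. Their median log2 fold change was 0.31, and 0.82 without WT replicate 3. The median of this list without QQ replicate 3 was not worked out, so a direction cannot be read from the 0.82. In the tested apolipoprotein and carrier genes other than APOB, the median was 1.36 without WT replicate 3 but -0.79 without QQ replicate 3. Replicate 3 was the highest and replicate 2 the lowest of both genotypes in 12 of the 19, beside 3.25% of all tested rows. At least a 4-fold range was found in 13, beside 3.73% of all tested rows. FETUB, a fetuin, had 5674, 1089 and 13339 reads in QQ embryos, against 4839, 1110 and 11884 reads in WT embryos. AHSG, the other fetuin, had 2047, 160 and 6193 reads in QQ embryos, against 888, 129 and 3383 reads in WT embryos. SERPINA1, the main plasma inhibitor of elastase, had 4993, 1684 and 7908 reads in QQ embryos, against 6316, 2849 and 8488 reads in WT embryos. All 3 genes had overlapping groups. RBP4, which TTR binds in plasma, had 1107, 671 and 3620 reads in QQ embryos, against 1472, 489 and 2328 reads in WT embryos. KNG1 had the largest fitted change of the list (log2 fold change 1.96 ± 0.94 SE; edgeR adjusted p = 0.262). ALB, the albumin gene that defines the adult hepatocyte, had 17, 12 and 11 reads in QQ embryos, against 13, 12 and 14 reads in WT embryos. It was 1 of 7 tested genes outside that order, with SERPINC1, SERPINF1, HPX, ITIH2, ITIH4 and CP.

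**Figure D5:**
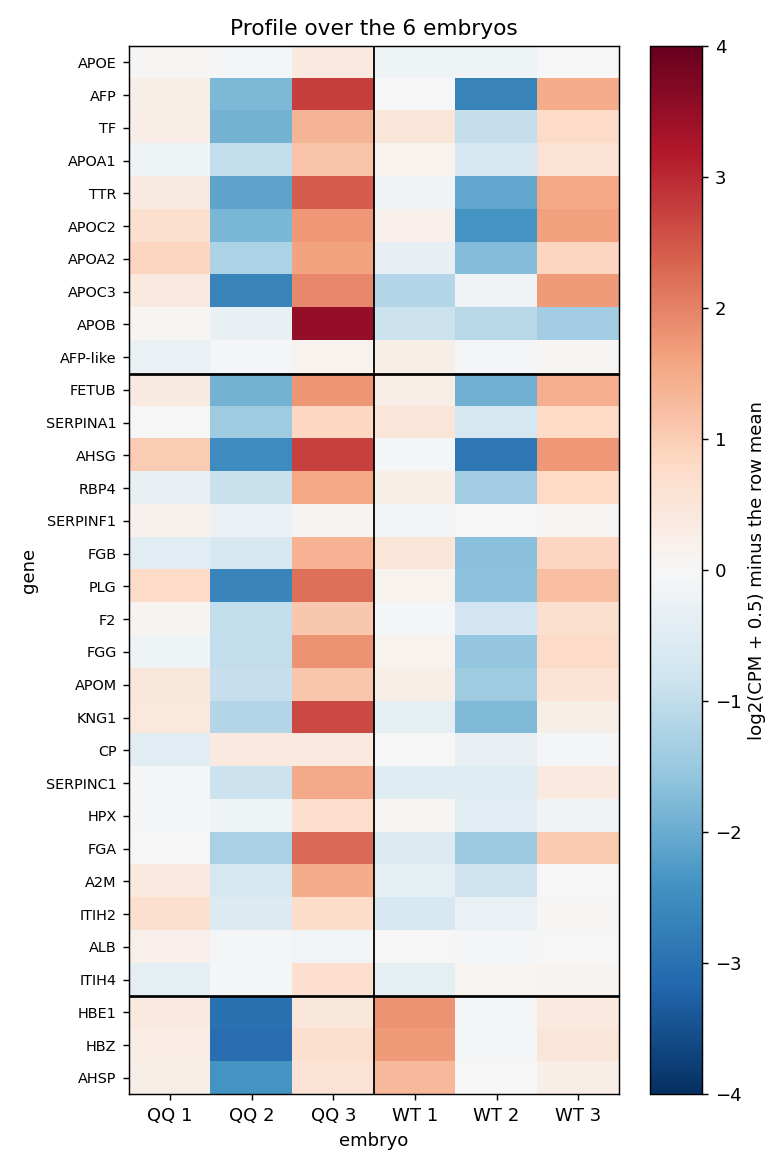
Log2(CPM + 0.5) of each gene minus its own mean over the 6 embryos (colour, red above and blue below the mean), for the tested genes described here (top), the other secreted proteins tested (middle) and 3 blood genes (bottom). QQ 3 and WT 3 are red and QQ 2 and WT 2 blue in most secreted genes, while APOE, SERPINF1 and ALB are pale and the globins HBE1 and HBZ are highest in WT 1.

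No gene that assembles or remodels lipoproteins was called, beside 0% of all 13957 tested rows. Of 22 genes listed under lipoprotein assembly and remodelling 16 had a row and 13 were tested. Their median log2 fold change was 0.07, and 0 had a 4-fold range on the log2(CPM + 0.5) scale. MTTP had 487, 468 and 512 reads in QQ embryos, against 451, 394 and 441 reads in WT embryos (log2 fold change 0.11 ± 0.13 SE; edgeR adjusted p = 0.605). The most abundant of the listed genes were ACAT2, SAR1A and SURF4, with log2 fold changes of -0.12, 0.28 and 0.07. SAR1A is a coat GTPase of secretory vesicles and SURF4 a cargo receptor. ACAT2 is a thiolase and does not itself assemble or remodel lipoproteins. LCAT had the largest fitted change, -0.39 ± 0.54 (SE). SOAT2, which esterifies cholesterol for the particles and is named after its values were seen, had 15, 7 and 38 reads in QQ embryos, against 9, 6 and 29 reads in WT embryos. It followed the order of AFP and differed 6.66-fold between its highest and lowest library without the added 0.5.

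Receptors that take lipoproteins up, with related receptors and adaptors, were also without calls, beside 0% of all tested rows. Of 20 listed genes 19 had a row and 15 were tested, 0 of them with a 4-fold range, and their median log2 fold change was 0.12. LRP2, megalin, which takes up proteins at the apical face of yolk sac endoderm, had 135, 101 and 212 reads in QQ embryos, against 156, 76 and 82 reads in WT embryos. The adaptor DAB2 and the receptor chaperone LRPAP1 had log2 fold changes of 0.38 and -0.18, and the sorting receptor SORL1 had the highest, 0.64 ± 0.22 (SE; edgeR adjusted p = 0.233). LRP5, a Wnt co-receptor, had the lowest, -0.64 ± 0.37 (SE; edgeR adjusted p = 0.322).

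Among 22 endoderm transcription factors 19 had a row and 18 were tested. Of these 0 were called, beside 0% of all tested rows, with a median log2 fold change of 0.13. HNF4A had 283, 239 and 981 reads in QQ embryos, against 390, 174 and 419 reads in WT embryos. Replicate 3 was the highest and replicate 2 the lowest of each genotype by reads, though WT replicates 1 and 3 were level in RPKM (6.59 and 6.58 RPKM). FOXA2, a pioneer factor of endoderm, was even, with 245, 236 and 268 reads in QQ embryos, against 226, 223 and 248 reads in WT embryos. GATA4 and GATA6, which act in the same layer, had log2 fold changes of 0.38 and 0.20. NR2F1 (-0.29) was among the most abundant, and PROX1 had the largest fitted change, 0.88 ± 0.34 (SE; edgeR adjusted p = 0.233).

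Cholesterol synthesis genes differed little between embryos. Of 25 listed 23 had a row and all 23 were tested, with 0 called and a median of -0.01 for the log2 fold change. A 4-fold range was found in 1, the sterol carrier STARD4 (log2 fold change 0.85 ± 0.38 SE; edgeR adjusted p = 0.245). FDPS and FDFT1, enzymes of the pathway, were among the most abundant, with log2 fold changes of -0.25 and -0.01.

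Markers of other cells were set beside these values, where the edgeR test called 0% of all tested rows. Of 20 embryonic blood markers 19 had a row and 15 were tested, with 0 called and a median log2 fold change of -0.79. The fitted value was lower in QQ for all 15, and 9 had a 4-fold range, beside 3.73% of all tested rows. Their median range was 2.36 on the log2 scale, beside 2.35 for the other secreted proteins. Their summed level was 2971, 304 and 3251 RPKM in QQ embryos, against 7755, 2188 and 3015 RPKM in WT embryos, so QQ replicate 2 was the lowest here too but WT replicate 1, not WT replicate 3, was the highest. The globins HBE1 and HBZ held most of it, with log2 fold changes of -1.08 and -1.01, and AHSP and HBB stood at -0.85 and -1.61. The part of blood content in the levels of the secreted genes was not tested. Gut and epithelial markers (12 of 13 with a row, 11 tested, 0 called, median log2 fold change -0.19) summed to 7120, 5848 and 6854 RPKM in QQ embryos, against 7670, 7096 and 8503 RPKM in WT embryos. KRT8, KRT19 and KRT18 led them, with log2 fold changes of -0.36, -0.11 and -0.53.

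Trophoblast markers (14 of 16 with a row, 12 tested, 0 called, median 0.11) summed to 269, 194 and 276 RPKM in QQ embryos, against 191, 201 and 212 RPKM in WT embryos. HAND1, TEAD3 and CDX2 led them by level. IFNG, the interferon gamma of the pig conceptus, had 1165, 44 and 1 reads in QQ embryos, against 50, 143 and 168 reads in WT embryos, an order unlike that of the secreted genes. Macrophage markers (10 of 14 with a row, 2 tested, 0 called, median 0.94) summed to 4.93, 5.27 and 7.33 RPKM in QQ embryos, against 5.06, 3.86 and 4.10 RPKM in WT embryos. MRC1, the mannose receptor, which lay closest to the APOB row of 3336 bp but was not among the 8 genes closest to the row of 4888 bp, had 63, 98 and 299 reads in QQ embryos, against 51, 28 and 34 reads in WT embryos, while CSF1R, which defines macrophages, had at most 3 reads in any library. CD14 (log2 fold change -0.08) and CD68 were the other leading macrophage markers. Maternal endometrium markers (9 of 11 with a row, 4 tested, 0 called, median -0.41) summed to 22.3, 14.6 and 15.8 RPKM in QQ embryos, against 22.5, 24.0 and 22.8 RPKM in WT embryos. All 4 tested had a lower fitted value in QQ, and in 2 the groups did not overlap, beside 9.07% of all tested rows with lower QQ values. SPP1, STC1 and SAL1 led them, and the steroid receptors PGR and ESR1 had at most 2 reads in any library. SAL1 had the largest fitted change of the list, a log2 fold change of -1.46 ± 0.38 (SE; edgeR adjusted p = 0.233).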

How the data were processed

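Total RNA of 6 whole embryos was sequenced from TruSeq libraries, per the labels' protocols. Per the submitters' processing notes the genome build was Sscrofa10.2. Aligner, counting program and strand setting: not given in the sources used here. Per the file headers, the deposited table gives, per library and transcript, a count of uniquely mapped reads, the RPKM and the covered percent of the transcript's length. The deposited RPKM equals the count scaled by length and library total, within a relative gap of 1.29e-07.

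All 20523 rows entered edgeR 4.0.16 (R 4.3.3): the default filter (minimum count 10, minimum total 15), TMM, quasi-likelihood test, Benjamini-Hochberg adjustment over 13957 rows, threshold 0.05. On simulated counts of these rows with 200 changed, it recovered 100% of 4-fold, 76.1% of 2-fold and 19.4% of 1.5-fold changes, with 18 false calls. The changed rows were drawn from the better-read rows of the whole table, so these rates are not those of the 13 genes. Recovery was not simulated separately for genes with a spread as wide as that of AFP (SE 1.08 for its log2 fold change). Each row was simulated on its own, without a deviation shared by many rows of a library such as that of WT replicate 3. The rates therefore do not describe the real libraries. All pairs of libraries differed by more than sampling noise (chi-square per degree of freedom at least 8.06). Each SE of an edgeR log2 fold change is its absolute value divided by the square root of the quasi-likelihood F. Such an SE restates the test statistic and is not a separate estimate, so none is given for APOB. Alternatives used DESeq2 1.42.0 and limma 3.58.1. The SE that DESeq2 itself gave for AFP was 1.44. Intervals and floors (3 reads) cover counting error only.

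Symbols came from protein accessions (7185 rows), KEGG genes (2287 rows) or, for list genes without either, descriptions (53 rows); the description patterns were added after values had been seen. The genes named are all members; of each list the 3 with the highest mean RPKM, the largest fold change and any called; a set of genes chosen by name; and the 8 most like APOB. Of these, 3 are not reported here. Members and lists were chosen with earlier results of these data known. Figures were drawn with matplotlib 3.10.9.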

Additional observations from a re-analysis of the deposited data

How the results depend on the processing

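No alternative called any of the 9 tested genes other than APOB (DESeq2 gave the AFP-like row no adjusted p), nor did a threshold of 0.1. Over the whole table edgeR called 0 rows, and DESeq2 called 103 higher and 8 lower. With QQ replicate 1 left out edgeR called 2 higher and 1 lower, and with WT replicate 3, both replicates 1 or both replicates 3 left out, 1 higher each time. The other alternatives called 0 rows at 0.05. The median log2 fold change of the 10 tested genes, APOB included, was 0.12 and ran from -0.76 to 1.41 when each library was left out in turn and from 0.12 to 0.33 under the other alternatives. APOE, APOA2 and the AFP-like row kept their direction in all 18 alternatives each. Leaving out each library gave -0.94 to 2.19 for AFP, -0.95 to 2.01 for TTR, -0.82 to 1.36 for APOC2, -1.28 to 1.45 for APOC3, -0.79 to 0.54 for TF and -0.73 to 0.42 for APOA1. With limma on log2(RPKM + 0.5) TF was -0.19, APOA1 -0.03 and APOC3 -0.38; with 0.1 they were -0.20, -0.03 and -0.64, and with 1 -0.18, -0.03 and -0.23. The cause was not tested.

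Over the tested rows, the deviations of same-numbered embryos from their genotype means correlated at -0.191, 0.213 and -0.0558 for replicates 1 to 3. Embryos of different number ran from -0.17 to 0.221, so the numbers were not taken as pairs. The replicate block called 0 rows, and under it TF was -0.27, APOA1 -0.12 and APOC3 -0.14 (-0.27, -0.12 and -0.13 with all rows of a gene summed). With the same block AFP was 0.71 ± 0.18, APOA2 0.81 ± 0.24 and TTR 0.46 ± 0.21 (SE), with edgeR adjusted p of 0.295, 0.295 and 0.312. APOC2 was 0.26, APOE 0.14 and the AFP-like row -0.30. APOB was 1.16 to 2.41 with limma, 3.31 under the replicate block, and 0.23 from its second row. Over its 19 alternatives it ran from 0.23 to 4.84, the highest without both replicates 1. Chosen after seeing the data were the pseudocounts of 0.1 and 1 for single genes, the second APOB row, the block on summed rows, and leaving out both embryos of a number. Without both replicates 1, APOC2 was -0.04 and APOC3 -0.24; without both replicates 3, TF was -0.41 and APOA1 -0.37. Few reads limit APOB, APOC3 in QQ replicate 2, and the genes below the filter.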
